A study of Mus musculus with 16 samples.

Results

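Heat shock proteins, chaperonins and prefoldins are the cell's protein-folding machinery, and 86 of their genes were followed here among the 18194 genes that the array measures with at least 1 probe set annotated to a single symbol. Members were chosen by symbol alone: the HSP70 genes (Hspa), the HSP90 genes, the mitochondrial chaperonin with its lid (Hspd1, Hspe1), HSP110 (Hsph1), the small heat shock proteins (Hspb), the J proteins (Dnaja, Dnajb, Dnajc), the cytosolic chaperonin (Tcp1, Cct) and the prefoldins (Pfdn, Uri1). They comprise 13 HSP70 genes, 1 HSP110 gene, 2 HSP90 genes, 2 genes of HSP60 and HSP10, 8 small heat shock proteins, 4 DNAJA, 13 DNAJB and 27 DNAJC genes, 10 chaperonin CCT genes and 6 prefoldins. The array carries 208 probe sets for them, and the brightest of a gene's probe sets, by its mean log2 value over all arrays, stands for the gene. Hsp90ab1, the constitutive cytosolic HSP90, and Hsf1, the main heat shock transcription factor, were not analysed here.

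The samples were immature thymocytes sorted from mice that lack PKBα (also called Akt1), a kinase activated downstream of PI3K, and from their wild-type littermates, from a backcross to C57Bl/6. The deletion is present in every cell of the PKBα-/- mice, not in thymocytes alone. DN3 cells, double-negative for CD4 and CD8 and sorted as CD25+ and CD44-, precede the pre-TCR checkpoint, and ISP8 cells, immature CD8 single-positive cells, come after it. Both subsets were sorted from each of 8 mice, which gave 4 littermate pairs, 4 arrays for each genotype and subset and 16 arrays in all. Pair 1 was female and 3 weeks old, pair 2 male and 3 weeks old, pair 3 male and 2 weeks old, and pair 4 female and 5 weeks old. Each array value is a background-corrected and normalized intensity on a linear scale. The authors treat values of different genes as comparable only semi-quantitatively, so a comparison between probe sets is rough.

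Chaperones bind unfolded or partly folded chains and release them in cycles driven by ATP. HSP70 proteins take client chains from J proteins, which stimulate their ATPase, and nucleotide exchange factors such as HSP110 open them again; HSP90 acts later, on kinases and receptors that are close to their final fold. Prefoldin carries newly made actin and tubulin to the CCT ring, a chamber of 8 different subunits in which both fold, while HSP60 with its HSP10 lid serves the mitochondrial matrix. Thymocytes that pass the pre-TCR checkpoint divide rapidly, and dividing cells make much new protein.

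The labels were checked on the deleted gene first. The Akt1 value lay between 1198 and 2007 in wild-type DN3 cells and between 1628 and 2211 in wild-type ISP8 cells, against 2.01 to 27.3 in PKBα-/- DN3 cells and 4.87 to 6.81 in PKBα-/- ISP8 cells. The summed value of 11 DN3 markers was 87490 to 100893 in DN3 arrays and 43606 to 52833 in ISP8 arrays, and that of 6 ISP8 markers was 2953 to 10414 in DN3 arrays and 13821 to 19491 in ISP8 arrays. Array medians lay between 55.1 and 70.5 and were lower in ISP8 than in DN3 in 4 of 4 mice of each genotype (exact paired permutation test, two-sided, p = 0.125, the smallest p that 4 pairs allow). Summed values of markers of some other cells, which follow their brightest genes, were also lower in ISP8 than in DN3 arrays: 2538 to 3133 against 6832 to 8383 for mature T cells, 273 to 593 against 812 to 4595 for γδ T cells, 274 to 566 against 1101 to 1315 for B cells and 251 to 525 against 597 to 1219 for epithelium and stroma. Gene by gene most of these markers went the other way in wild-type cells: 5 of 6 mature T, 3 of 4 B and 6 of 10 stromal markers tested were above 0, while 0 of 2 γδ T markers were, and the mean log2 value of the lists was 0.29, 0.65, 0.56 and -1.19 in ISP8 against DN3 arrays. The sums of the remaining lists overlapped between ISP8 and DN3 arrays. They were 562 to 1426 against 840 to 1602 for myeloid and dendritic cells and 1617 to 2759 against 2635 to 3686 for NK and innate lymphoid cells. For neutrophils they were 92.3 to 4422 against 96.1 to 1470, and for erythroid cells 9.49 to 101 against 5.01 to 38.8. The part of all these other cells in the differences between subsets was not tested. The array numbers run from ISP8 to DN3, so that anything that follows array order cannot be told apart from subset.

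The promoters of several members carry the letters that heat shock factors and the ER stress factors recognise, and those printed here belong to members whose values are described below. RefSeq promoters (GRCm38.p6, 250 bases before the start of the gene) were at hand for 71 of the 86 members. Capitals mark matches, on either strand, to the heat shock element in its short forms GAANNTTC and TTCNNGAA or to the ER stress response element, CCAAT and CCACG with 9 bases between them. The first promoter is that of Hspa1a, the stress-induced HSP70, at chr17:34972157-34972406 on the minus strand. The window of Hspd1-Hspe1 is the whole 215 bases between the divergent genes of HSP60 and HSP10, at chr1:55087933-55088147, read on the strand of Hspe1. Hspa5 (chr2:34771840-34772089, plus strand), Hsp90b1 (chr10:86705445-86705694, minus strand) and Dnajc3 (chr14:118937682-118937931, plus strand) encode chaperones of the ER. Uri1 (chr7:38019553-38019802, minus strand) is shown because it was the member that differed between genotypes.
Hspa1a: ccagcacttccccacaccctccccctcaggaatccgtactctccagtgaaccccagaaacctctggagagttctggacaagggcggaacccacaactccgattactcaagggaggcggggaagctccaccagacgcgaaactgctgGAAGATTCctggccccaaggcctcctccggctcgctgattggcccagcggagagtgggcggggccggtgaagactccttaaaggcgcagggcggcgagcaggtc
Hspd1-Hspe1: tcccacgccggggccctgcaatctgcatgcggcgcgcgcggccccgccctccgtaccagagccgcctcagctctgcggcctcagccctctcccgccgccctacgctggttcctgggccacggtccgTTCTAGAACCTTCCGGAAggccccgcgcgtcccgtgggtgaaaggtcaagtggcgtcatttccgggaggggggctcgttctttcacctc
Hspa5: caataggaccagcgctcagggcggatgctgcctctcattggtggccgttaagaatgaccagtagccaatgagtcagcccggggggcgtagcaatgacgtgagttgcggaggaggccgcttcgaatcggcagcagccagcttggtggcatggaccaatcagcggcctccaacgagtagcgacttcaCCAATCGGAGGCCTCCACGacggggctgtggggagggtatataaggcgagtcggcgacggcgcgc
Hsp90b1: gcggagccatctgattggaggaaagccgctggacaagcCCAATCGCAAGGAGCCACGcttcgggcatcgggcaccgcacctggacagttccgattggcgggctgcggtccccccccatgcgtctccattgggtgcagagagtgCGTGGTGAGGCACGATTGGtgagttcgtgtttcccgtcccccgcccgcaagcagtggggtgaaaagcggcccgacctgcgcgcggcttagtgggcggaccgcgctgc
Dnajc3: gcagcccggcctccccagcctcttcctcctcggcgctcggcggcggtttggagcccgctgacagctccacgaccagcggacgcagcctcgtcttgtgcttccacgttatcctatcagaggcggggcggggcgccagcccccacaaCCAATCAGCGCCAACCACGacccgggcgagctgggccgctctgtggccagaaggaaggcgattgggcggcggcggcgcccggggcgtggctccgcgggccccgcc
Uri1: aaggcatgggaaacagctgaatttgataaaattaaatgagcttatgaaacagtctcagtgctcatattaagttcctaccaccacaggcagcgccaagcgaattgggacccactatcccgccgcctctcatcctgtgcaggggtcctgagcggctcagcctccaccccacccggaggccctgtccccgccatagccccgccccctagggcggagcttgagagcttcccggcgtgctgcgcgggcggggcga

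The short forms overlap in the Hspd1-Hspe1 window, where 1 GAANNTTC and 2 TTCNNGAA matches share units and make up a run of 18 bases with 4 alternating units. A 3-unit element, GAANNTTC followed by NNGAA, was searched as well. Among the 92 promoter windows of members, 15.2% held GAANNTTC and 9.78% held TTCNNGAA, against 6.69% and 7.17% of the 32851 promoters in the table. The 3-unit element was in 4.35% of the members' windows (those of Hspd1, Hspe1 and Dnajb6) and in 0.466% of all promoters. The ER stress response element was in 3.26% of the members' windows (those of Hspa5, Hsp90b1 and Dnajc3) and in 0.113% of all promoters. In the 250 bases before Uri1 none of these letter patterns was found. A match is a description of the letters and not of binding.

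Most members lay high enough on the intensity scale to be tested. The median over members of the mean log2 value was 9.95, against 6.59 over all genes, and 42 of the 86 members exceeded 10. Across the 4 comparisons within a genotype or a subset, 73 members were bright enough to be tested in each (a value above 20 in at least 1 array of a pair, in at least 3 pairs) and 5 in none (Hspa12b, Hspa1l, Hspb3, Hspb9 and Cct6b). The stress-induced HSP70 genes had low values. Hspa1a read 2.29 to 58.2 over the 16 arrays and Hspa1b 27.8 to 123. The promoters of this near-identical pair of genes matched at 247 of 250 bases, and how the signal divides between the genes is uncertain. Hspa8, the constitutive cytosolic HSP70, read 30405 to 36151.

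The first comparison asks which chaperone genes depend on PKBα in each subset. In DN3 cells 0 of the 76 members tested passed limma's test at an adjusted p under 0.05, beside 0.0555% of the 14424 genes tested. The unadjusted p was under 0.05 for 2 members, Pfdn2 (0.38 ± 0.16 SE on the log2 scale) and Dnajb8 (-2.35 ± 1.1, a dim probe set), and for 5.01% of all genes. The smallest adjusted p of a member was 0.972, and the paired t-test with a fold threshold that the study's methods describe selected 0 members. The median difference of members was 0.019.

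In ISP8 cells 1 of 76 members passed and it was lower in PKBα-/- cells, beside 0.0206% of the 14555 genes tested. That member was Uri1, the unconventional prefoldin RPB5 interactor, which sits with other prefoldin-like subunits and the R2TP cochaperone in a complex that helps to assemble RNA polymerases. In wild-type ISP8 cells of pairs 1 to 4 Uri1 read 8034, 6189.8, 6319 and 5582, and in PKBα-/- ISP8 cells 5004, 4048, 3824 and 4019. The groups did not overlap, and the lowest wild-type array lay above the highest PKBα-/- array. The 4 within-pair log2 differences were -0.68, -0.61, -0.72 and -0.47, with a mean of -0.62 ± 0.075 (SE, adjusted p = 0.018 by limma).

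In DN3 cells the same probe set read 4444, 4538, 5254 and 4841 in wild-type mice and 4767, 4774, 5058 and 4307 in PKBα-/- mice. These groups overlapped, and the mean log2 difference was -0.012 ± 0.079 (SE). Seen along the other axis, Uri1 rose from DN3 to ISP8 in wild-type cells by 0.44 ± 0.11 (SE, adjusted p = 0.00684 by limma), whereas in PKBα-/- cells the step was -0.17 ± 0.089 (adjusted p = 0.193). The difference between the steps, which is also the difference of the genotype effect between subsets, was -0.61 ± 0.15 on the log2 scale, below 0 in 4 of 4 pairs, with an unadjusted p of 0.000846 and an adjusted p of 0.961. It did not pass the adjustment, so that a difference between the subsets is not shown.

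The call on Uri1 in ISP8 cells was lost without pair 1 (adjusted p = 0.256), without pair 3 (0.144), with a floor of 100 (0.0869), without the pair as a block (0.914) and in a fit of all 16 arrays (0.140), and the other 2 Uri1 probe sets differed by -0.21 (unadjusted p = 0.0740) and -0.11 (0.440), so that their mean with the first was -0.32 (adjusted p = 0.694). The rise of Uri1 in wild-type cells was lost after quantile normalization (adjusted p = 0.0618) and without pair 1 (0.0648), and the step in PKBα-/- cells passed as a fall after quantile normalization (-0.26, adjusted p = 0.0453). Beside the genotype difference in ISP8 cells, the mean log2 value of the heat shock factor list (Hsf2, Hsf4, Hsf5 and Hsbp1) was lower by 0.32. That of the immediate early genes was lower by 0.37, each in 4 of 4 pairs (exact p = 0.125 each, two-sided). Gene by gene, 2 of 3 genes of the heat shock factor list and 6 of 13 immediate early genes tested were below 0. The median of the latter was 0.039. The actin 3' minus 5' log2 signal, a measure of RNA integrity, was higher by 0.24 in 4 of 4 pairs (exact p = 0.125, two-sided). The same signal of Gapdh was higher by 0.10 on average, in 2 of 4 pairs (exact p = 0.75, two-sided). The mean log2 value of the DN3 markers was higher by 0.23 in PKBα-/- ISP8 cells in 4 of 4 pairs (exact p = 0.125), with 10 of 11 above 0, 4 at an unadjusted p under 0.05 and 0 that passed. Of the other-cell markers tested, 6 of 6 for neutrophils, 5 of 5 for B cells and 8 of 8 for myeloid and dendritic cells were below 0 in this contrast and 0 passed, and the summed neutrophil value was 92.3 to 227 in PKBα-/- against 189 to 4422 in wild-type ISP8 cells. The part of these measures in the Uri1 result was not tested.

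All 6 prefoldin members were below 0 in ISP8 cells, from -0.62 for Uri1 to -0.0067, with a median of -0.17, and none of the other 5 passed. Of all members tested 43 of 76 were below 0, and 29 of the 42 with a mean log2 value above 10. By pair, Uri1 and Pfdn4 were below 0 in 4 of 4 and Pfdn1 in 3 of 4. Pfdn2 and Pfdn5 were below 0 in 2 of 4 pairs and Pfdn6 in 1 of 4. Pfdn2, a β subunit of prefoldin, was -0.20 ± 0.13 (SE) in ISP8 cells and Pfdn5, an α subunit known to bind Myc, was -0.049 ± 0.10. Besides Uri1, 3 further members had an unadjusted p under 0.05. Hspe1, the HSP10 lid, was -0.30 ± 0.092 (SE), below 0 in 4 of 4 pairs. Hspa13, a microsomal HSP70 relative, was -0.29 ± 0.11, also below 0 in 4 of 4 pairs and with groups that did not overlap. Dnajb5, whose probe set was dim (mean log2 value 5.56), was -0.93 ± 0.38 in the same manner. Dnajc27 went the other way without overlap, at 0.41 ± 0.21 and above 0 in 4 of 4 pairs (unadjusted p = 0.0772 by limma). The share of all genes whose groups did not overlap is not given here. In all, 4 members had an unadjusted p under 0.05, Uri1 included, beside 6.49% of all genes. The methods' t-test selected 3 members in ISP8 cells (Uri1, Dnajb5 and Dnajb14) beside 1.49% of the genes tested, and 0 after Benjamini-Hochberg adjustment. The HSP70, HSP90, HSP60 and CCT members and the J proteins had 0 calls in both subsets.

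**Figure D1:**
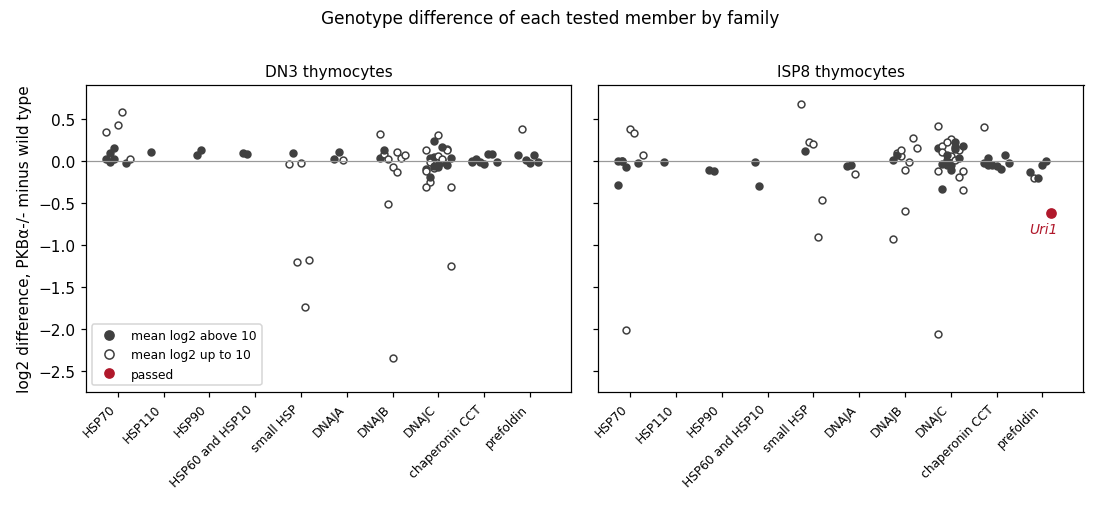
Log2 difference of PKBα-/- minus wild type (vertical axis) for each tested member, by family (horizontal axis), in DN3 cells (left) and ISP8 cells (right). Filled points are members with a mean log2 value above 10, open points are dimmer members, and the red point is Uri1, the only member that passed, at -0.62 in ISP8 cells; the widest differences otherwise are those of dim probe sets, such as Dnajb8 at -2.35 in DN3 cells.

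The difference of the genotype effect between DN3 and ISP8 cells was tested directly for 78 members with all 16 arrays. The count that passed was 0 (0% of 15586 genes), and the smallest adjusted p was 0.961. The unadjusted p was under 0.05 for 5 members and for 4.66% of all genes. These were Uri1 (above), Pfdn2 (-0.58 ± 0.22 SE), Hspe1 (-0.37 ± 0.14), Hspa13 (-0.38 ± 0.16) and Hspa1a, whose probe set was close to background.

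The second comparison asks what happens to the folding machinery as thymocytes pass from DN3 to ISP8. It was made within each mouse and separately in each genotype, so that the wild-type and PKBα-/- steps share no array. In wild-type cells 28 of 78 members rose and 10 fell, beside 33.7% of the 14694 genes tested that passed in either direction (14% higher, 19.7% lower). In PKBα-/- cells 25 of 77 members rose and 9 fell, beside 33.1% of 14531 genes (14.1% higher, 19.0% lower). Bright genes passed more often, so the fairer background is the 4273 genes with a mean log2 value above 10. Of these, 52.5% passed in wild-type cells (30.3% rose and 22.2% fell), while 24 of the 42 bright members rose and 5 fell (57.1% and 11.9%). Among PKBα-/- cells 51.5% of the bright genes passed (28.9% rose and 22.7% fell), and 21 of the bright members rose and 4 fell (50.0% and 9.52%). The values are per amount of RNA hybridised, so fewer cells of a type and less RNA per cell cannot be told apart.

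The median step of members was 0.24 on the log2 scale in wild-type cells, against -0.055 for all genes and 0.071 for bright genes. The PKBα-/- step had a median of 0.13, against -0.033 and 0.053. Quantile normalization of the 16 arrays moved the median of all probe sets in wild-type cells from -0.087 to 0.032, and the counts of members then became 21 higher and 11 lower in wild-type cells and 23 and 9 in PKBα-/- cells. Among bright members 13 rose and 6 fell in wild-type cells after this scaling (31.0% and 14.3%, against 25.3% and 23.9% of bright genes), and 17 rose and 5 fell in PKBα-/- cells (40.5% and 11.9%, against 25.7% and 24.6%). Beside the wild-type step the actin 3' minus 5' log2 signal was -0.65 on average and lower in ISP8 in 4 of 4 mice (exact p = 0.125, two-sided), and in PKBα-/- mice it was -0.23 and lower in 3 of 4. The same signal of Gapdh was -0.064 on average in wild-type and 0.11 in PKBα-/- mice, and lower in ISP8 in 2 of 4 mice of each genotype. The part of these 3' minus 5' signals in the steps was not tested.

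Of the 40 members that passed in either step, 24 rose in both, 8 fell in both, 6 passed in wild-type cells alone and 2 in PKBα-/- cells alone. The number that passed in opposite directions was 0, and 38 of the 40 had the same sign. The share of all genes that agreed between the steps is not given here, so this agreement is not shown to be particular to the members. Uri1, Hspe1, Dnajc11 and Cct6a rose and Dnajc1 and Dnajc13 fell in wild-type cells alone, while Hspa4 rose and Hspa13 fell in PKBα-/- cells alone. None of these 8 passed the direct test of the difference. The calls on Dnajc1 and Dnajc11 were lost without pair 1, that on Dnajc13 without pair 1 or 2, and that on Hspa4 without pair 1, 2 or 3.

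**Figure D2:**
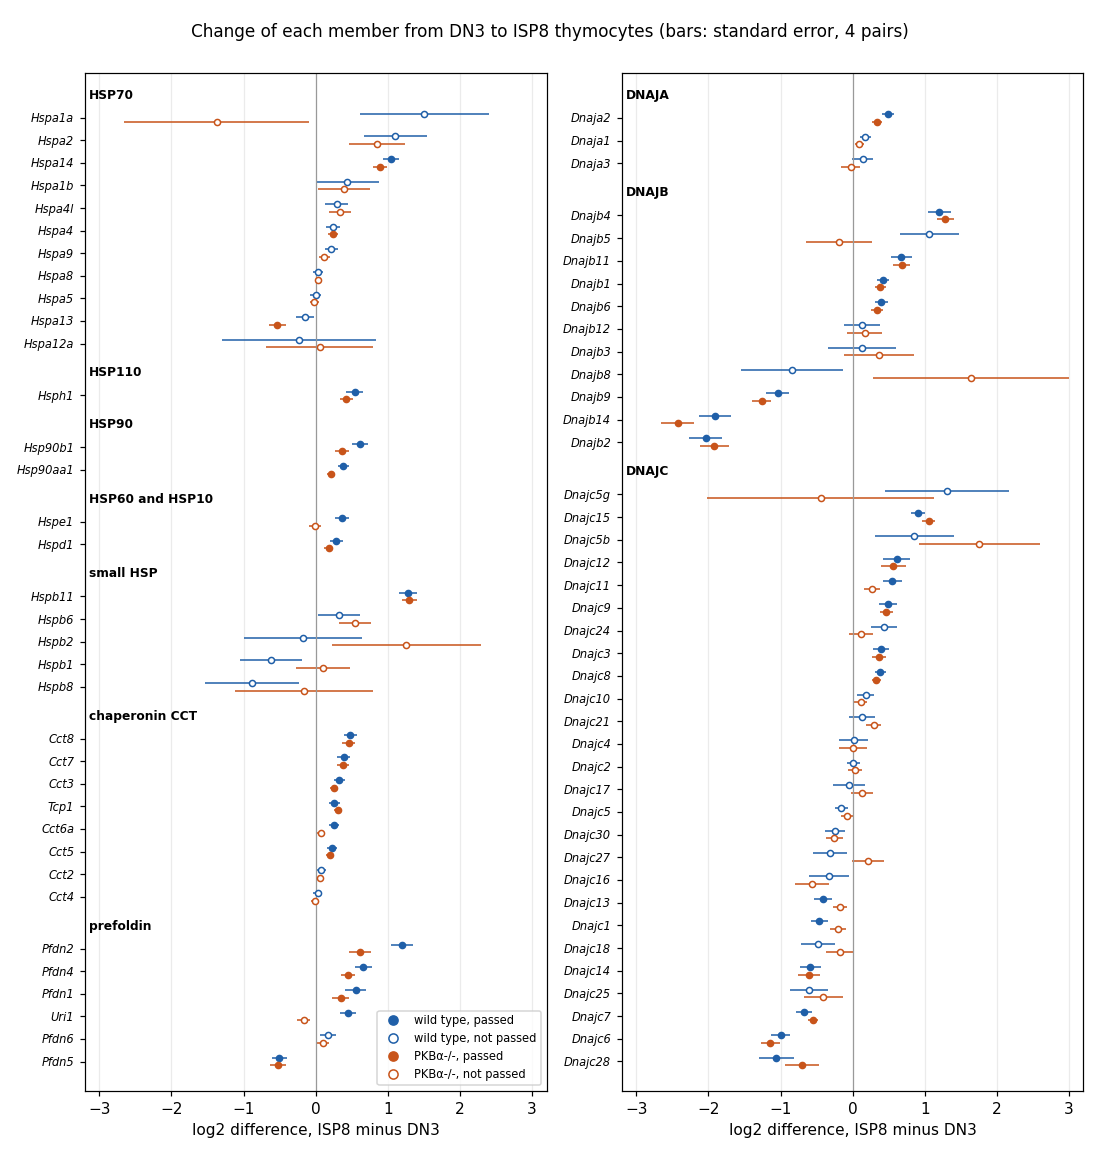
Log2 difference of ISP8 minus DN3 (horizontal axis, with SE bars from 4 mice) for the 75 members tested in both steps, 1 row per gene grouped by family, in wild-type (blue) and PKBα-/- cells (orange), with filled points for differences that passed. Hspb11 at 1.28 and 1.30 and Dnajb2 at -2.04 and -1.92 have nearly the same step in both genotypes, Uri1 has 0.44 and -0.17, and the widest bars belong to dim genes such as Hspa1a.

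Among the HSP70 machines, the constitutive genes of the cytosol, the ER and the mitochondria did not pass in either genotype. In wild-type DN3 cells Hspa8 read 34240.4, 32514, 32129 and 33648, and in ISP8 cells of the same mice 30587, 36151, 32849 and 35922. The groups overlapped, and the step was 0.029 ± 0.067 (SE) in wild-type and 0.038 ± 0.050 in PKBα-/- cells. Hspa5 (BiP), the HSP70 of the ER, had steps of 5.6e-05 ± 0.078 and -0.017 ± 0.069, although another of its probe sets, of the _x_at type that can cross-hybridise, differed by 1.35 and 1.06. Hspa9 (mortalin), the HSP70 of the mitochondrial matrix, had steps of 0.22 ± 0.086 and 0.12 ± 0.077.

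Hspa14, a ribosome-associated HSP70 that meets chains as they leave the ribosome, rose in both. It read 1244, 1508, 1564 and 1053 in wild-type DN3 cells and 2412, 2962, 2908 and 2679 in wild-type ISP8 cells, and 1392, 1387, 1935 and 1236 and 2542, 2593, 3114 and 2656 in the same subsets of PKBα-/- mice. The DN3 and ISP8 groups were apart in both genotypes. It rose by 1.04 ± 0.12 (SE, adjusted p = 1.63e-05 by limma) and 0.89 ± 0.10 (adjusted p = 1.38e-05). Of the HSP70 members 1 of 11 rose and 0 fell in wild-type cells (beside 14% and 19.7% of all genes and 30.3% and 22.2% of bright genes). In PKBα-/- cells 2 of 11 rose and 1 fell (beside 14.1% and 19.0% of all genes and 28.9% and 22.7% of bright genes). Hsph1, the HSP110 that exchanges nucleotide on HSP70, rose by 0.54 ± 0.12 and 0.42 ± 0.090 (adjusted p = 0.00313 and 0.00257), the second of which was lost without the mouse as a block (adjusted p = 0.232) and both in 1 fit of all 16 arrays (0.0533 and 0.150).

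Both HSP90 genes measured rose in both genotypes. Hsp90aa1, the inducible cytosolic form, read 16876, 15355, 14832 and 15421 in wild-type DN3 and 22409, 18908, 17894 and 22683 in wild-type ISP8 cells. In PKBα-/- mice the readings were 16405, 17910.4, 14389 and 16733 in DN3 and 17482, 19673, 17394 and 21238 in ISP8 cells. The steps were 0.38 ± 0.073 (SE, adjusted p = 0.0012 by limma) and 0.21 ± 0.061 (adjusted p = 0.0186). Hsp90b1 (GRP94), the HSP90 of the ER, read 2149, 2799.8, 2875 and 2919.6 in wild-type DN3 and 3824, 4252, 4708 and 3610.0 in wild-type ISP8 cells, where the lowest DN3 value, that of pair 1, stood apart. It rose by 0.61 ± 0.11 (adjusted p = 0.000655) in wild-type and 0.36 ± 0.095 (adjusted p = 0.0103) in PKBα-/- cells. The PKBα-/- call on Hsp90aa1 was lost without pair 2, 3 or 4 and after quantile normalization (adjusted p = 0.293), that on Hsp90b1 without pair 2, and both without the mouse as a block (0.0925 and 0.102). With a gene's probe sets averaged, Hsp90aa1 passed in neither genotype (0.0676 and 0.458).

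The mitochondrial chaperonin was less firm. Hspd1 (HSP60) read 11715, 13993, 11692 and 9959 in wild-type DN3 and 13760.1, 13680.1, 15892 and 14021 in wild-type ISP8 cells, and its step was 0.28 ± 0.090 (SE, adjusted p = 0.0298 by limma). The PKBα-/- step was 0.18 ± 0.062 (adjusted p = 0.0463). Hspe1 (HSP10), which shares the promoter window printed above with Hspd1, rose by 0.37 ± 0.10 in wild-type cells (adjusted p = 0.0153), while its step in PKBα-/- cells was -0.0062 ± 0.085. After quantile normalization neither gene passed in either genotype. Without the mouse as a block Hspd1 passed in neither genotype (adjusted p = 0.0579 and 0.125). The Hspd1 call was also lost without pair 1, 3 or 4 in wild-type cells and without any 1 pair in PKBα-/- cells, and the Hspe1 call without pair 4.

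**Figure D3:**
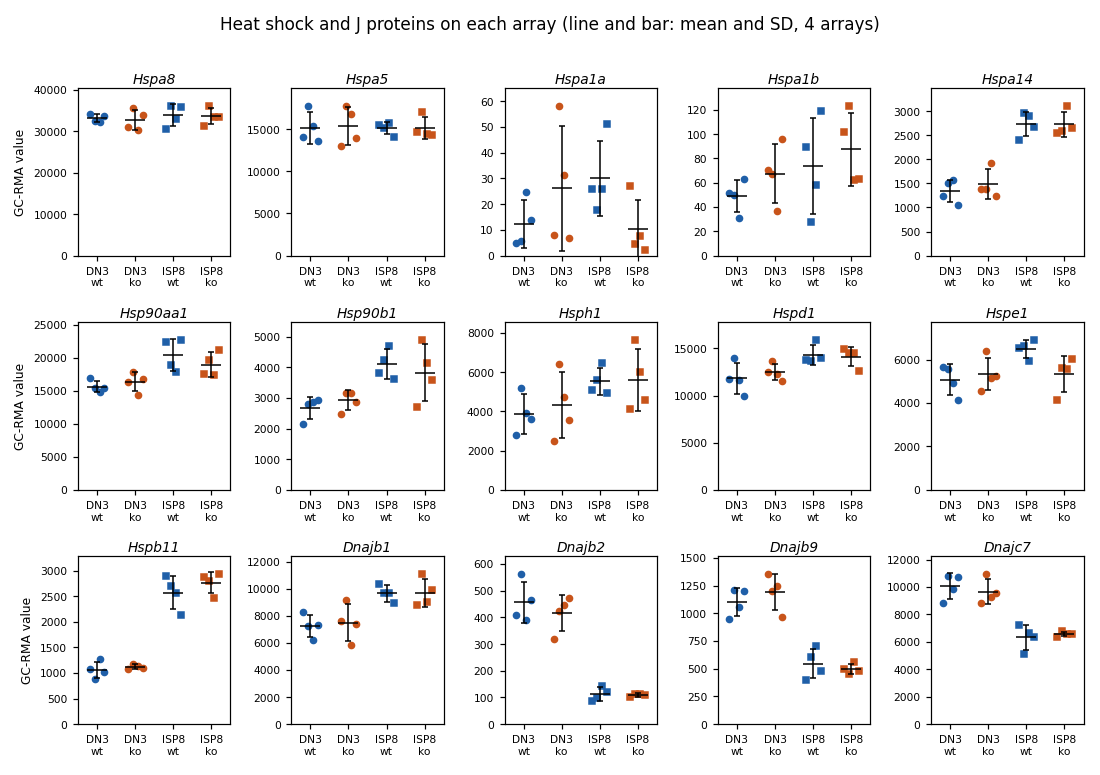
GC-RMA intensity (vertical axis, linear, with a scale of its own for each gene) of heat shock and J protein genes on each array, in DN3 (circles) and ISP8 cells (squares) of wild-type (blue) and PKBα-/- mice (orange), with a line for the mean and a bar for the SD of 4 arrays. Hspa8 lies between 30405 and 36151 on all arrays, Hspb11 is higher and Dnajb2 lower in every ISP8 array than in any DN3 array, and Hspa1a stays at or below 58.2, where bars are cut at 0.

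Most subunits of the cytosolic chaperonin rose by small steps as the arrays were deposited, and fewer did after quantile normalization. In wild-type cells 6 of the 8 CCT members tested rose and 0 fell (beside 30.3% and 22.2% of bright genes), with 8 of 8 above 0 and a median of 0.25. In PKBα-/- cells 5 rose and 0 fell (beside 28.9% and 22.7% of bright genes), with 7 of 8 above 0 and a median of 0.23. Cct8 (the θ subunit) read 7553, 9938, 7704 and 6298 in wild-type DN3 and 10430.4, 11400.4, 11576 and 9935 in wild-type ISP8 cells, and 7148, 8493, 7795 and 7411 and 11733, 9275, 11074 and 10305 in the same subsets of PKBα-/- mice. Its steps of 0.48 ± 0.089 (SE) and 0.46 ± 0.086 were the widest of the family among those that passed in both genotypes (adjusted p = 0.00107 and 0.000996 by limma).

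Cct7 (the η subunit) rose by 0.39 and 0.38, Cct3 (γ) by 0.33 and 0.25, Tcp1 (α) by 0.26 and 0.31, and Cct5 (ε) by 0.23 and 0.20, in wild-type and PKBα-/- cells. Cct6a (ζ) rose in wild-type cells alone, by 0.25 ± 0.070 (SE), against 0.069 ± 0.061 in PKBα-/- cells. Cct2 (β) had steps of 0.078 ± 0.067 and 0.061 ± 0.058 and Cct4 (δ) of 0.025 ± 0.068 and -0.0098 ± 0.055, and neither passed. These calls depended on the scaling and the probe set. After quantile normalization 1 CCT member passed in wild-type cells (7 of 8 above 0, median 0.10) and 3 in PKBα-/- cells (5 of 8 above 0), and when a gene's probe sets were averaged Cct8 turned to -0.16 and -0.42 and Cct3 to -0.30 in PKBα-/- cells. Without pair 1, 3 or 4 the wild-type call on Cct5 was lost, without pair 3 or 4 that on Tcp1, and without pair 2 or 4 that on Cct6a, and the PKBα-/- call on Cct5 was lost without pair 2, 3 or 4.

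Prefoldin, which feeds the ring, moved unequally. Among its 6 members 4 rose and 1 fell in wild-type cells (beside 30.3% and 22.2% of bright genes). In PKBα-/- cells 3 rose and 1 fell (beside 28.9% and 22.7% of bright genes). Pfdn2 read 399, 396, 560.1 and 490.2 in wild-type DN3 and 949, 1128, 1203 and 919 in wild-type ISP8 cells. In PKBα-/- mice it read 559.8, 703, 575 and 543 in DN3 and 625, 1159, 1212 and 768 in ISP8 cells. It rose by 1.19 ± 0.15 (SE, adjusted p = 5.2e-05 by limma) and 0.61 ± 0.15 (adjusted p = 0.008), and the second of these calls was lost without pair 3.

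Pfdn4, a β subunit like Pfdn1, rose by 0.66 ± 0.12 (SE) and 0.45 ± 0.10 (adjusted p = 0.000686 and 0.00387). Pfdn1 rose by 0.55 ± 0.15 and 0.34 ± 0.12, a call that was lost without pair 4 in wild-type cells and without any 1 pair in PKBα-/- cells. Pfdn5 went the other way. It read 3474, 2890.3, 2576 and 3011 in wild-type DN3 and 2341, 2260.1, 1535 and 2367 in wild-type ISP8 cells, and fell by 0.50 ± 0.11 (SE, adjusted p = 0.00307 by limma) in wild-type and by 0.52 ± 0.11 (adjusted p = 0.00185) in PKBα-/- cells, calls that were lost when its probe sets were averaged (0.576 and 0.908). Pfdn6, a β subunit, had steps of 0.17 ± 0.11 and 0.10 ± 0.077 and did not pass in either. Vbp1, which is prefoldin 3 and carries another symbol, rose by 0.55 ± 0.092 and 0.40 ± 0.077 (adjusted p = 0.000491 and 0.00134).

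**Figure D4:**
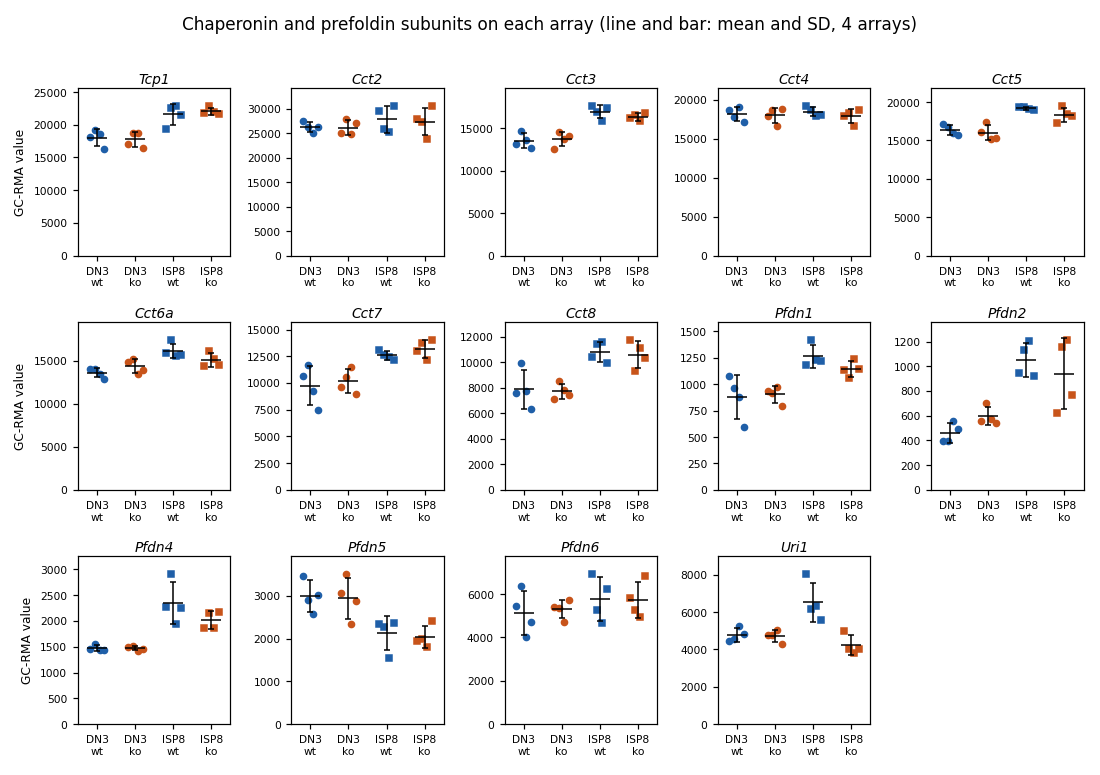
GC-RMA intensity (vertical axis, linear, with a scale of its own for each gene) of the chaperonin CCT and prefoldin members on each array, in DN3 (circles) and ISP8 cells (squares) of wild-type (blue) and PKBα-/- mice (orange), with a line for the mean and a bar for the SD of 4 arrays. The means of Cct8 and Pfdn2 are higher and that of Pfdn5 lower in ISP8 than in DN3 cells of both genotypes, and Uri1 stands at 5582 or more in wild-type ISP8 cells and at 5004 or less in PKBα-/- ISP8 cells.

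Of the 6 small heat shock proteins tested in wild-type cells 1 passed (16.7%, beside 33.7% of all genes). Among the 8 genes of the family 1 had a mean log2 value above 10, and the family median was 4.56. The member that passed was Hspb11, which bears the name by numbering and is known as IFT25, a subunit of the intraflagellar transport complex. It read 1072, 883, 1269.6 and 1027 in wild-type DN3 and 2893, 2694, 2574 and 2141 in wild-type ISP8 cells, and 1084, 1178, 1145 and 1093 and 2883, 2806, 2463 and 2932 in PKBα-/- mice. The subsets were far apart in both genotypes. The steps were 1.28 ± 0.13 (SE, adjusted p = 6.64e-06 by limma) and 1.30 ± 0.10 (adjusted p = 4.05e-07). In PKBα-/- cells 1 of 5 small heat shock proteins passed (beside 33.1% of all genes), again Hspb11, a call lost when its probe sets were averaged (adjusted p = 0.160).

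J proteins choose the clients of HSP70. Of 42 tested, 11 rose and 9 fell in wild-type cells (26.2% and 21.4%, beside 14% and 19.7% of all genes and 30.3% and 22.2% of bright genes). In PKBα-/- cells 10 rose and 7 fell (23.8% and 16.7%, beside 14.1% and 19.0% of all genes and 28.9% and 22.7% of bright genes). The share of J proteins that fell was near that of all genes. The deepest falls of these genes were in the B class. Dnajb2, a neuron-enriched J protein that binds ubiquitinated clients, read 409, 561, 388 and 467 in wild-type DN3 and 86.8, 97.5, 143 and 120.4 in wild-type ISP8 cells. It fell by 2.04 ± 0.23 (SE, adjusted p = 1.97e-05 by limma) in wild-type and by 1.92 ± 0.20 (adjusted p = 5.94e-06) in PKBα-/- cells.

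Dnajb14, a J protein of the ER membrane, read 369, 459, 369 and 640.2 in wild-type DN3 and 113, 131, 114 and 119 in wild-type ISP8 cells. It fell by 1.91 ± 0.22 and by 2.43 ± 0.23 (SE, adjusted p = 1.99e-05 and 2.13e-06). Dnajb9 (ERdj4), a J protein of the ER lumen that is induced by the unfolded protein response, read 951, 1211, 1056 and 1203 in wild-type DN3 and 401, 606, 702 and 477 in wild-type ISP8 cells and fell by 1.04 ± 0.16 and by 1.26 ± 0.13. Some other J proteins of the same compartment rose. Dnajb11 (ERdj3) rose by 0.68 ± 0.15 (SE) and 0.68 ± 0.12, and Dnajc3 (p58IPK), whose promoter is printed above, rose by 0.40 ± 0.11 and 0.36 ± 0.094, the first of which was lost without pair 1, 3 or 4 and without the mouse as a block (adjusted p = 0.0809), and both when its probe sets were averaged (0.155 and 0.434).

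Among the other falling genes, Dnajc6 (auxilin, which strips clathrin from vesicles) fell by 1.0 and 1.14, Dnajc7 (a tetratricopeptide protein that binds HSP70 and HSP90) fell by 0.68 and 0.56, Dnajc14 by 0.59 and 0.61, and Dnajc28 by 1.06 and 0.70. The PKBα-/- calls on Dnajc28 and Dnajc14 were lost without pair 2, and that on Dnajc28 also without pair 3 or 4 and after quantile normalization (adjusted p = 0.158). When probe sets were averaged the call on Dnajc14 was lost in both genotypes (0.537 and 0.222). Dnajc15 (MCJ, at the inner mitochondrial membrane) read 2512, 1899, 1939 and 1901 in wild-type DN3 and 4426, 3691, 3508 and 3728 in wild-type ISP8 cells and rose by 0.90 ± 0.098 (SE) and 1.05 ± 0.088. Dnajb4 rose by 1.20 ± 0.16 and 1.28 ± 0.12. Dnajc8, a nuclear J protein associated with splicing, rose by 0.38 and 0.33, and Dnajc9, a histone chaperone, by 0.49 and 0.47. The wild-type call on Dnajc9 was lost without pair 3 or 4.

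Dnajb1 (HSP40), the stress-induced J protein of the cytosol, rose by 0.42 ± 0.084 (SE) and 0.38 ± 0.078, whereas Dnaja1 had steps of 0.18 ± 0.072 and 0.094 ± 0.063 and did not pass. Dnaja2 rose by 0.49 and 0.34 and Dnajb6 by 0.40 and 0.34, but other probe sets of both genes passed in the opposite direction, and for Dnaja2 the chosen probe set without the _x_at and _s_at types gave -0.51 and -0.32. After quantile normalization the wild-type calls on Dnajb1 and Dnajb6 were lost (adjusted p = 0.0763 and 0.0595). In wild-type cells, 24 of the 38 members that passed had other probe sets bright enough to test. Of these 53 other probe sets, 41 had the sign of the chosen one, 15 passed with that sign and 3 passed with the opposite sign (in Dnaja2, Dnajb4 and Dnajb6). In PKBα-/- cells 20 of the 34 members that passed had 45 such probe sets, and fewer agreed. Of the 45, 29 had the sign of the chosen one, 13 passed with it and 2 passed with the opposite sign (in Dnaja2 and Dnajb6). An opposite sign was seen in 10 of the 24 members in wild-type and 10 of the 20 in PKBα-/- cells.

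Genes that work with the members were read from lists of cochaperones, clients and stress factors. Of the 14 HSP70 cochaperones 3 rose and 1 fell in wild-type cells, and 1 rose and 2 fell in PKBα-/- cells. Of 13 HSP90 cochaperones 2 rose and 2 fell in each genotype. The shares of the cochaperone lists that passed were 28.6% and 21.4% for HSP70 and 30.8% in both genotypes for HSP90. They were below the 33.7% and 33.1% of all genes and the 52.5% and 51.5% of bright genes. Of 10 prefoldin-like and chaperonin partners 4 rose and 1 fell in wild-type cells, and 2 rose and 1 fell in PKBα-/- cells. The shares of this list that passed were 50.0% and 30.0%, beside 52.5% and 51.5% of bright genes. The falling gene was Pdrg1, a prefoldin-like subunit found with Uri1, at -1.43 ± 0.095 and -1.46 ± 0.074 (SE, adjusted p = 1.6e-07 and 6.26e-09), named after its values were seen. In the genotype comparisons 0 genes of these lists passed in either subset.

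Most clients of the chaperonin rose. Of 9 actin and tubulin genes 7 rose and 1 fell in both genotypes, and Tubb2a, the widest step, rose by 2.47 ± 0.11 and 2.62 ± 0.11 (SE), with Tuba1a at 1.81 ± 0.097 and 1.73 ± 0.080, both named after their values were seen. Beside them 17 of 18 proliferation genes rose in both genotypes. Of all bright genes 30.3% rose and 22.2% fell in wild-type cells, and 28.9% rose and 22.7% fell in PKBα-/- cells. Hsbp1, a small protein that binds heat shock factor 1 and restrains it, fell by 0.83 ± 0.11 and 0.89 ± 0.10 (SE). It stands in the heat shock factor list but is not itself such a factor. Of that list it alone passed, among 4 genes tested in wild-type cells and 3 in PKBα-/- cells. Among 14 immediate early genes, which cell isolation can induce, 3 rose and 3 fell in wild-type cells (21.4% each, beside 14% and 19.7% of all genes).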

How the data were processed

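The authors hybridised RNA of sorted thymocytes, amplified in 2 cycles, to Affymetrix 430 2.0 arrays and, per the labels, deposited GC-RMA values computed in Refiner 3.1 (Genedata). The deposited table holds 45101 probe sets for 16 arrays as a linear intensity per probe set, and the number of its per-sample columns left unused was 0. Probe sets were named from GEO's platform annotation: 34958 had 1 symbol, 932 several and 9211 none; 4 of those with several symbols hold a member's symbol and were left out. The number of arrays limits the precision.

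Values were taken to log2 with no constant added and tested with limma 3.58.1 (R 4.3.3, eBayes with a trend) with the littermate pair, or for the subset step the mouse, as a block. A probe set was tested if it exceeded 20 in at least 1 array of a pair in at least 3 pairs, p-values were adjusted over all probe sets tested (Benjamini-Hochberg), and the call was an adjusted p under 0.05. Mouse pairs are those of the labels: over 21708 probe sets, deviations from the group means correlated at 0.337 to 0.400 between littermates in DN3 and at 0.0807 to 0.194 in ISP8, against at most 0.0708 between other mice. The methods' t-test was a paired one on log2 values, with at least 1.5-fold in 3 of 4 pairs.

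Members and gene lists were chosen with earlier results of these data known. Genes named are fixed anchors by role, plus per comparison and direction up to 8 members that passed with the smallest p and had 1 sign in all 4 pairs (at least 4 members, by p); others are named as seen. Promoters were read from RefSeq (GRCm38.p6). Scripts were tested on simulated data. Figures used matplotlib 3.10.9 under Python 3.11.15. Alternatives were other filters, an added constant of 20, quantile normalization, no block, robust moderation, 1 fit of all arrays, other probe sets per gene and each pair left out.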

Additional observations from a re-analysis of the deposited data

Results flagged for a closer look

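Of 216 checks of a member within a group of 4 arrays (54 members), 9 had 1 array far from the other 3, by the gap to the nearest array as a share of the group's range; chance flags about 1 in 20 such groups. In wild-type DN3 cells the lowest value of Hsp90b1 was that of pair 1, 2149 against 2800 for the next (gap share 0.863), the highest of Dnajc15 was also that of pair 1, 2512 against 1939 (0.925), and the highest of Dnajb11 was that of pair 2, 976 against 680.1 (0.867). In wild-type ISP8 cells the highest value of Hspd1 was that of pair 3, 15892 against 14021 (0.836), the highest of Cct6a was that of pair 2, 17417 against 15871 (0.836), the lowest of Pfdn5 was that of pair 3, 1535 against 2260 (0.893), and the lowest of Hspb7 was that of pair 2, 10.1 against 57.0 (0.869). In PKBα-/- DN3 cells the highest value of Dnaja1 was that of pair 2, 15593 against 12153 (0.975). In PKBα-/- ISP8 cells the lowest value of Dnajb8 was that of pair 2, 4.51 against 29.9 (0.943). Uri1 had no such array in any group.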

How the results depend on the processing

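Genotype calls on members were few and fragile. In DN3 cells, and for the difference between subsets, 0 members passed under any alternative run. In ISP8 cells the count was 0 with a floor of 100, 0 with no replicate block, 0 in 1 fit of 16 arrays, 0 with the mean of all probe sets, 3 by the methods' t-test and 0 after its adjustment, and 0 to 1 when a pair was left out. Steps from DN3 to ISP8 held better: 29 to 40 members passed in wild-type cells and 26 to 35 in PKBα-/- cells (29 to 39 and 26 to 31 when a pair was left out, 35 and 28 with no replicate block). Of 2442 values of named members, 2336 stayed on their side of the threshold (118 of them, never called, changed sign), 92 lost the call, 7 gained it and 7 reversed. With the mean of all probe sets Dnajb6 became -0.28 and Cct8 -0.16 in wild-type cells, and Cct3 -0.30, Cct8 -0.42 and Hspa5 0.27 in PKBα-/- cells; without _x_at and _s_at types Dnaja2 became -0.51 in wild-type and -0.32 in PKBα-/- cells. These 7 follow from the change of probe set. With no replicate block the PKBα-/- steps of Hsph1, Hsp90aa1, Hsp90b1, Hspd1 and Cct5 and the wild-type steps of Hspd1 and Dnajc3 lost the call. For the other changes the cause was not tested.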

Other observations

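Of the 18 genes of the ER folding and unfolded protein response list, 6 rose, 2 fell and 10 did not pass in the wild-type step from DN3 to ISP8. In PKBα-/- cells 5 rose, 2 fell and 11 did not pass. The shares that passed were 44.4% and 38.9%, beside 33.7% and 33.1% of all genes and 52.5% and 51.5% of bright genes. The mean log2 value of this list was above 10 on every array. The genes that fell were Ern1 (IRE1 itself) at -2.55 ± 0.13 and -2.76 ± 0.19 (SE, log2, adjusted p = 2.17e-08 and 8.82e-08 by limma) and Xbp1, the mRNA it splices, at -1.40 ± 0.090 and -1.52 ± 0.071. Among members that work in the ER the steps differed, and not all such members are listed here. Dnajb9 and Dnajb14 fell and Hsp90b1, Dnajb11 and Dnajc3 rose in both genotypes (Dnajc3 not with its probe sets averaged). Dnajc1 fell in wild-type cells alone (-0.46 ± 0.12), Hspa13 fell in PKBα-/- cells alone (-0.53 ± 0.12), and Hspa5 passed in neither. Of 8 mitochondrial chaperone partners 2 rose in each genotype (25.0%), among them Timm44, which tethers the mitochondrial HSP70 to the import channel, at 1.33 ± 0.17 and 1.25 ± 0.11. These genes were named after their values were seen, and no gene of either list passed in a genotype comparison.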
